A study of Mus musculus with 43 samples.

Results

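Integrins and laminins are the receptors and the ligands of one adhesion system. An integrin is a heterodimer of an alpha and a beta subunit that spans the plasma membrane and ties the matrix outside to talin, kindlin and actin inside. A laminin is a trimer of an alpha, a beta and a gamma chain, and laminins assemble the sheet of basement membrane on which astrocyte endfeet rest at blood vessels and at the brain surface. Integrins with the alpha3, alpha6 or alpha7 subunit bind laminins, those with alpha4, alpha5, alpha8 or alphav bind fibronectin, vitronectin and similar ligands, and the beta8 subunit pairs with alphav and releases active TGF-beta from its latent complex.

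Members were all genes named as integrin alpha subunits (Itga followed by a number or v), integrin beta subunits (Itgb followed by a number) or laminin chains (Lama, Lamb and Lamc). They came to 32 of the 24537 genes in each deposited table, 21 integrins and 11 laminins, and all 32 matched a RefSeq gene of the mouse build GRCm38.p6. A mean of at least 1 FPKM (fragments mapped to a transcript, scaled to its length and to the size of the library) in any group was reached by 26 of them, 17 integrins and 9 laminins, and by 17 in all 9 groups. Those below it in every group were Itga10, Itgb4, Itgb6, Itgb7, Lama3 and Lamb3. Just inside the limit lay Itgb3, whose highest group mean was 1.33 FPKM, and Itga2b with 1.79, and just outside lay Itga10 with 0.759 and Lama3 with 0.668.

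The samples were mouse cortical astrocytes in 43 libraries of poly(A) RNA. One table held cells purified from the cortex at postnatal day 7 by immunopanning, in which antibodies on a dish retain them, and grown for 12 days without serum. They came from wild-type mice (WT, n = 6) or from a mouse model of a disorder, which was FXS (Fragile X syndrome, n = 6), RTT (Rett syndrome, n = 6) or DS (Down syndrome, n = 4). Another held WT cultures prepared in the same manner that received the secreted factor BMP6 for the final 5 days (BMP6, n = 6) or did not (Alone, n = 6). The last held immunopanned astrocytes without culture (IP acute, n = 3), immunopanned astrocytes after culture (IP cultured, n = 3) and cultured astrocytes from the preparation labelled MD (MD cultured, n = 3). Allele and strain behind each disorder model, and the age and culture time of the preparations, are not given in the sources used here.

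Estimated depth ran from 10.5 to 54.8 M reads per library with a median of 27 M, and it was lowest in WT, at a median of 18.2 M. Fmr1 was at 0.967 to 2.21 FPKM in FXS against 12.0 to 17.1 in WT. App, which lies on the human chromosome that is trisomic in Down syndrome, was at 276 to 652 in DS against 138 to 203 in WT. Id3, a direct target gene of BMP signalling, was at 485 to 680 FPKM in BMP6 against 65.3 to 193 in Alone. All 10 astrocyte markers examined, Aqp4 and Slc1a2 among them, had a mean of at least 1 FPKM in each group. Of 11 endothelial markers, the number with a mean under 1 FPKM was 7 in WT, 8 in FXS, 9 in RTT, 8 in DS, 10 in Alone, 10 in BMP6, 7 in IP cultured and 5 in MD cultured, against 0 in IP acute. Among the defining ones mean Pecam1 was at most 0.111 FPKM and mean Cldn5 at most 0.0117 in the cultured groups, against 107 and 527 in IP acute. Fewer cells of a type and less RNA per cell cannot be told apart in these bulk libraries.

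The promoters of Lamb1, Lamb2 and Lama5 are shown because these chains differed between preparations, Lamb2 and, with the pairs in the fit, Lamb1 also with BMP6, whose signals act on DNA through SMAD proteins. Lamc1, Itga6 and Lama4 had no promoter entry. Each window runs from 250 bases before a start site to 50 bases after it, 5′ to 3′ on the gene's own strand (RefSeq, build GRCm38.p6). That site lies 147 bases into the gene from the outermost start given below for Lamb1, 15 for Lamb2 and 45 for Lama5. Capitals mark the SMAD-type motifs GGCGCC, which is its own reverse complement, and CAGAC or GTCTG, the same motif on either strand. Lamb1 lies at chr12:31265043-31265342 on the plus strand, Lamb2 at chr9:108479612-108479911 on the plus strand and Lama5 at chr2:180225810-180226109 on the minus strand.
Lamb1: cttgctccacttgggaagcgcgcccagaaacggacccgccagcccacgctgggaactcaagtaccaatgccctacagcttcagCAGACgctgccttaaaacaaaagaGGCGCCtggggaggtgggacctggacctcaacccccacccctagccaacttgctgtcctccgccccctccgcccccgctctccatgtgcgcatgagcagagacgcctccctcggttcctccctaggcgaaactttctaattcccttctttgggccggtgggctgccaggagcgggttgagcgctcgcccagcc
Lamb2: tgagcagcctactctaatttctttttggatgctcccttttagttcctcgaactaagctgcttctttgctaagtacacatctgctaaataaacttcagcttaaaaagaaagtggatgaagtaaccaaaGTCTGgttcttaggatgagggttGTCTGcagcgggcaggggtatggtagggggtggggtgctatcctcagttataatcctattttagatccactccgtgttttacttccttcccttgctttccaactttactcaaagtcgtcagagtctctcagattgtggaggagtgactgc
Lama5: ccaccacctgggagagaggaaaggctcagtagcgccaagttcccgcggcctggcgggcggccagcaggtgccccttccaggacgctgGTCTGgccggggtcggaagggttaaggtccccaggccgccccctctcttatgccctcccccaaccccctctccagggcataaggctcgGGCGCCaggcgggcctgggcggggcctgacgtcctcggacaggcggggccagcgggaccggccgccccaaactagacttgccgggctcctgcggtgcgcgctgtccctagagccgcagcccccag

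The Lamb1 and Lama5 windows each held 1 GGCGCC and 1 CAGAC or GTCTG, and their GC content was 63.7% and 72.7%. The Lamb2 window held 2 GTCTG, no GGCGCC, and had 44% GC, against a median of 52.7% over all promoters. In the 32851 windows of this length, 11.9% held GGCGCC and 49.6% held CAGAC or GTCTG, and among the 18 windows of 17 reported members these were 3 and 12 windows. No motif overlapped the other in the windows shown. A match is a description of letters only.

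In cultured astrocytes the highest-expressed members were 2 beta subunits. Itgb1, the subunit shared by most matrix-binding integrins, had a mean of 192 ± 52.7 FPKM (SD, n = 6) in WT, and Itgb5, a partner of alphav in binding vitronectin, had 165 ± 20.9. Their ranges overlapped, and in FXS and DS the order of the means was the other way round, with Itgb5 at 165 and 170 and Itgb1 at 157 and 166. Both lay clear of the next member in WT, Lamb2, which was at 67.1 ± 12.2. Below it came Itgb8, Lamc1 and Itgav at 63.3, 47.4 and 44.6 FPKM, whose ranges overlapped from neighbour to neighbour, and then Itga6 at 23.1 ± 1.76, below the whole range of Itgav.

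Among laminin chains in the WT cultures, Lamb2 (beta2) and Lamc1 (gamma1) each lay above the summed alpha chains in level, which came to 20.1 ± 5.35 FPKM. Lama2 and Lama5, the alpha2 and alpha5 chains, made up 43.9% ± 6.70 and 39.3% ± 8.94 of that sum. Lama4, the alpha4 chain known from vessel walls, made up 11.9% ± 8.34. Lamb2 made up 92.1% ± 2.77 of the beta chains in WT and 88.3% to 96.3% on average in the other cultured groups of the first 2 tables. Itgb2, the beta subunit of leukocyte integrins, was at or below a mean of 0.225 FPKM in these 6 groups.

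**Figure D1:**
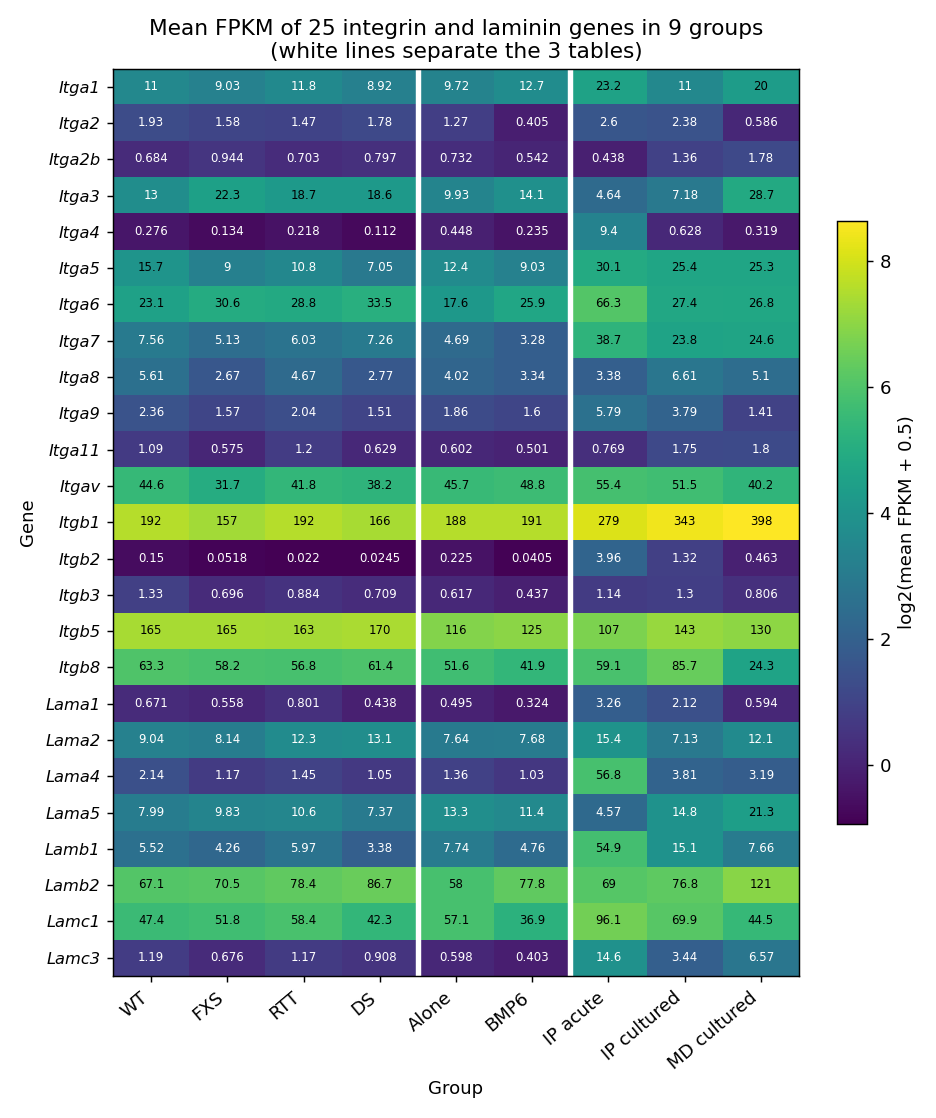
Mean FPKM of 25 integrin and laminin genes (rows) in the 9 groups (columns), printed in each cell and coloured on a log2(mean FPKM + 0.5) scale. White lines separate the 3 tables, whose FPKM sums differ, so levels are compared only within a table: Itgb1 and Itgb5 are bright in every column, while Lama4, Lamb1 and Itga4 are brightest in IP acute among the preparations.

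The comparison of the disorder models with WT asks whether the astrocytes of these mice make the adhesion system at other levels. Only 1 member passed the test in any of the 3 comparisons: Itga6 (chr2:71786886-71858427), the alpha6 subunit of laminin-binding integrins, rose in DS. Its levels in the 4 DS libraries were 45.7, 28.03, 23.8 and 36.5 FPKM, against a lowest of 21.2, a median of 22.9 and a highest of 25.2 in WT. DS libraries 19, 21 and 39 lay above all of WT and library 32 lay within its range, so the groups overlapped. The log2 difference was 0.49 (SE 0.14, limma, Benjamini-Hochberg adjusted p = 0.045 over all genes). In that comparison 4.35% of the 12780 genes tested were called (2.1% rose and 2.25% fell), and 1 of the 22 members tested, so the share of members called was near the background. Leaving out WT library 22, 26, 30, 33, 34 or 35, or DS library 19 or 39, took the adjusted p of Itga6 past 0.05, and over all alternatives it ran from 0.00582 to 0.246.

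Itga6 was also at higher levels in the other models without passing the test. In FXS its lowest, median and highest values were 27.9, 29.9 and 35.5 FPKM, all above WT, with a log2 difference of 0.40 (SE 0.12, limma adjusted p = 0.118). RTT libraries ran from 23.98 to 35.3 with a median of 28.4, overlapping WT, with a log2 difference of 0.30 (SE 0.12, limma adjusted p = 0.47). The 3 differences share the WT libraries. Compared directly, DS against FXS, DS against RTT and RTT against FXS called 0 members each in limma, against 2.72%, 2.74% and 0.0235% of all genes. At an unadjusted p under 0.05 stood 0, 3 and 5 members, against 15.9%, 19.2% and 14% of all genes.

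In FXS no member passed (0 of 22, limma), as 0.00782% of all genes did, and 9 members were at an unadjusted p under 0.05, against 19.5% of all genes. Itga3 (chr11:95044475-95076844), the alpha3 subunit that also binds laminin, gave the smallest p. Its FXS libraries ran from 16.5 to 30.7 FPKM with a median of 20.5, and WT from 9.96 to 15.9 with a median of 12.8, so that the groups did not overlap. The log2 difference was 0.74 (SE 0.19, limma adjusted p = 0.105). Itga3 and Itga6 were the 2 of 22 members whose FXS and WT libraries did not overlap, against 2.61% of all genes tested. With only FXS and WT in the fit both passed. The share of all genes called in that fit is not given here, so this is a description. Itga8, a subunit that binds fibronectin and nephronectin, was at 1.116 to 4.82 FPKM in FXS and 3.09 to 10.9 in WT, a log2 difference of -0.96 (SE 0.31, limma adjusted p = 0.122) with overlap.

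In DS the largest log2 difference by size among the 22 members tested was that of Itga5 (chr15:103344286-103366791), the alpha subunit of the main fibronectin receptor. DS libraries were at 6.80, 8.78, 6.62 and 6.00 FPKM, and WT ran from 8.24 to 26.5 with a median of 14.8. DS library 21 overlapped the low end of WT and the other 3 lay below it. The log2 difference was -0.99 (SE 0.29, limma adjusted p = 0.056), and it passed without WT library 22 (adjusted p = 0.0266) or 26 (adjusted p = 0.0352), in a range of 0.0266 to 0.166 over all alternatives. Itgb5, the one member on mouse chromosome 16 (16:33829665-33949338), was at 163 to 182 FPKM in DS and 140.1 to 202 in WT. Over the 22 members tested the median log2 difference was -0.19, beside -0.07 over all genes, and 7 members were at an unadjusted p under 0.05, against 19.8% of all genes. Of all genes called in DS, 48.4% rose, and 62.4% after scaling by the median of ratios.

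In RTT no member passed (0 of 22, limma), with 0.00782% of all genes called, and 4 members were at an unadjusted p under 0.05, against 10.5% of all genes.

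**Figure D2:**
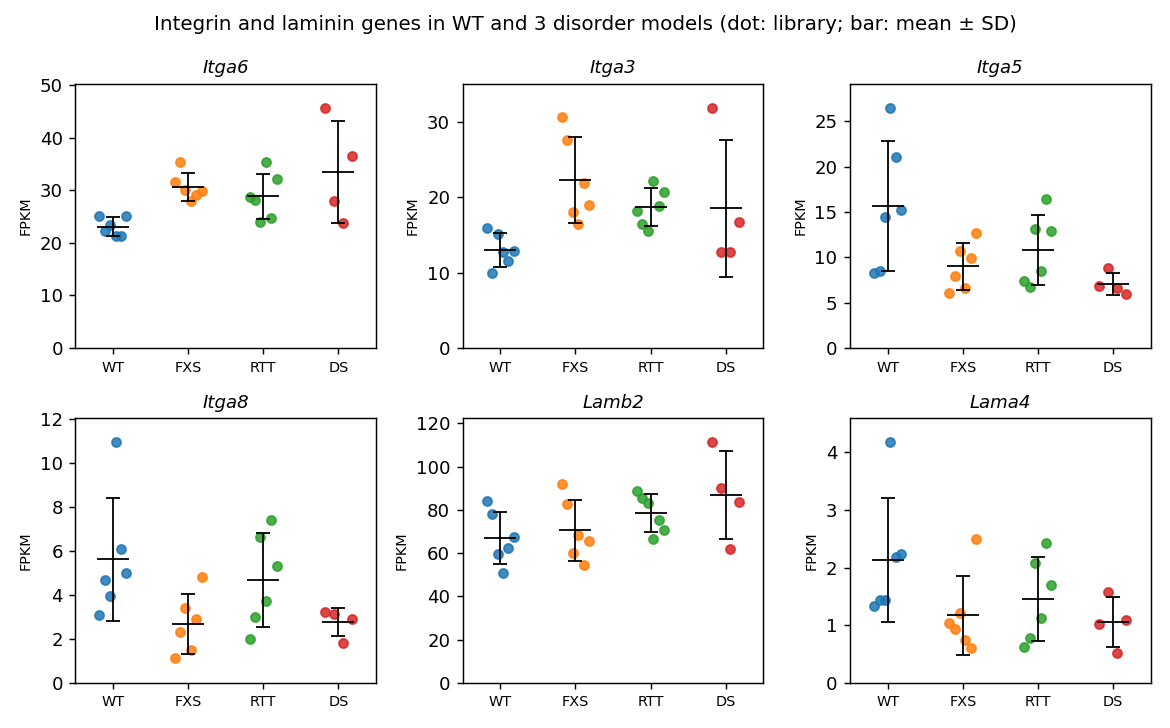
FPKM of 6 integrin and laminin genes in WT, FXS, RTT and DS; each dot is a library and the bar is the mean ± SD. Every FXS library lies above every WT library for Itga6 and Itga3, while the 4 DS libraries are spread for both, with Itga6 from 23.8 to 45.7.

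Laminin make-up in DS is given as a description, because the ratios were chosen after their values were seen. The ratio of Lamb2 to Lamc1 ran from 1.60 to 2.54 in DS and from 1.25 to 1.53 in WT, without overlap, while FXS (1.07 to 1.98) and RTT (1.01 to 1.91) overlapped both. Lamb1 made up 3.66% ± 1.18 of the beta chains in DS and 7.90% ± 2.78 in WT, with overlap. The summed mural and fibroblast markers were at 1107 to 2163 FPKM in DS, 939.9 to 2580 in FXS and 1011 to 3388 in WT. Of 13 tested, 13 had a lower fitted level in DS, with a median log2 difference of -0.65 and 5 at an unadjusted p under 0.05, and 12 in FXS, with -0.52 and 6, and 0 passed in either (limma). Of 4 neuronal markers tested 2 rose in DS, Gad1 and Syt1, while the summed list was at 22.2 to 63.2 in DS and 12.2 to 54.1 in WT. The summed microglial markers were at 1.21 to 10.4 in DS, 0.580 to 10.04 in FXS, 1.05 to 3.93 in RTT and 2.93 to 37.9 in WT. Ciliated and ependymal markers summed to 307 to 994 in FXS and 134 to 400 in WT. Summed endothelial markers were at 107 to 262 in DS, 87.3 to 196 in FXS and 61.4 to 105 in WT, and nearly all of that was Slco1a4, a transporter gene, which alone of 5 tested rose in DS, with mean Cldn5 at 0.0065 in DS. The part of these cells in the integrin and laminin values was not tested.

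Around the members, few genes of the 4 partner lists passed the test in the disorders. In FXS and in RTT 0 of 32 tested integrin adaptors and kinases, 0 of 15 basement membrane partners, 0 of 20 other laminin receptors and 0 of 22 other integrin ligands passed (limma), with 8, 6, 3 and 11 at an unadjusted p under 0.05 in FXS and 6, 2, 1 and 3 in RTT, beside 19.5% and 10.5% of all genes. In DS, where 4.35% of all genes passed, 0 adaptors and 0 receptors did, with 2 and 5 at an unadjusted p under 0.05, and 1 of 15 basement membrane partners and 3 of 22 ligands passed. The basement membrane partner was Col4a4, a collagen IV chain, with means of 1.76 FPKM in DS and 0.802 in WT. Its rise is a description, since its mean in WT was under the filter level. Of the integrin ligands, Npnt (nephronectin) rose by 0.83 (log2, SE 0.22, limma adjusted p = 0.0325). Mfge8, a secreted ligand of alphav integrins, fell by 0.80 (log2, SE 0.20, limma adjusted p = 0.0291), from a mean of 151 to 87.0 FPKM. Tgfb1, whose latent form is a ligand of alphav integrins, had means of 0.938 FPKM in DS and 1.80 in WT. Its fall is a description too, since its mean in DS was under the filter level.

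The comparison of BMP6 with Alone asks what the added factor does to WT astrocytes. A laminin gamma chain fell, a laminin beta chain rose and a laminin-receptor subunit rose. Of the 17 members tested 3 passed, 2 up and 1 down, beside 15.1% of the 12185 genes tested (5.38% up and 9.72% down), and 2 of the 17 had groups that did not overlap, beside 7.93% of all genes. Of all genes called, 35.6% rose, and 57.4% after scaling by the median of ratios. The libraries share a batch label pair by pair, and pairs deviated together, so values are given by pair as well.

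Lamc1 (chr1:153218922-153332786), the gamma1 chain of most laminins, fell. Alone libraries were at 49.1, 59.1, 67.4, 64.8, 58.8 and 43.2 FPKM in the pairs with batch labels 2 to 7, in that order, and their BMP6 partners were at 39.7, 35.5, 33.5, 41.6, 36.0 and 35.3. Every BMP6 library lay below every Alone library, and the highest Alone library, of pair 4, had the lowest BMP6 partner. The log2 difference was -0.61 (SE 0.11, limma adjusted p = 0.00452). Lamb2 (chr9:108479847-108490530), the beta2 chain, rose. Alone libraries were at 60.5, 66.1, 56.6, 58.0, 51.1 and 55.9 FPKM in the same order of pairs and BMP6 libraries at 89.5, 78.9, 71.1, 75.1, 80.98 and 71.5. All 6 pairs were higher with BMP6 and the groups did not overlap. The log2 difference was 0.42 (SE 0.08, limma adjusted p = 0.00568). Both calls held in all 17 alternatives run. The ratio of Lamb2 to Lamc1, chosen after its values were seen, ran from 0.839 to 1.29 in Alone and from 1.80 to 2.25 in BMP6.

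Itga6 rose too. Alone libraries were at 19.5, 16.8, 12.1, 21.9, 10.6 and 24.5 FPKM in the same order of pairs and BMP6 libraries at 26.6, 25.2, 23.4, 27.2, 24.3 and 28.6. All 6 pairs were higher with BMP6, most in pairs 4 and 6, whose untreated libraries were lowest, and the Alone library of pair 7 overlapped the BMP6 group. The log2 difference was 0.60 (SE 0.18, limma adjusted p = 0.0413). It missed the threshold without the BMP6 library of any of the 6 pairs, or without the Alone library of pair 3, 4 or 6, within a range of 0.0107 to 0.0811 over all alternatives.

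With the replicate block, 6 members passed, 2 up and 4 down, beside 35.5% of all genes. Lamc1, Lamb2 and Itga6 passed again, with adjusted p of 0.00525, 0.00496 and 0.0107 (limma). Lamb1 (chr12:31265146-31329644), the beta1 chain, was at 2.84, 9.86, 14.1, 8.13, 7.44 and 4.09 FPKM in Alone and 2.84, 5.79, 7.57, 5.67, 3.46 and 3.20 in BMP6, in the same order of pairs. Its groups overlapped, since the pairs start from different levels, and pair 2 was level. Its log2 difference of -0.56 had an SE of 0.13 with the block (limma adjusted p = 0.015) and of 0.35 without it (adjusted p = 0.291). Itga5 was lower in 6 of 6 pairs, by 0.05 to 0.89 on the log2 scale, with an adjusted p of 0.0216 with the block and 0.147 without it. Itgb8 was level in pair 6, at 35.2 FPKM in Alone and 35.1 in BMP6, and lower in the other pairs, by at most 0.53, with an adjusted p of 0.0231 with the block and 0.268 without it.

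**Figure D3:**
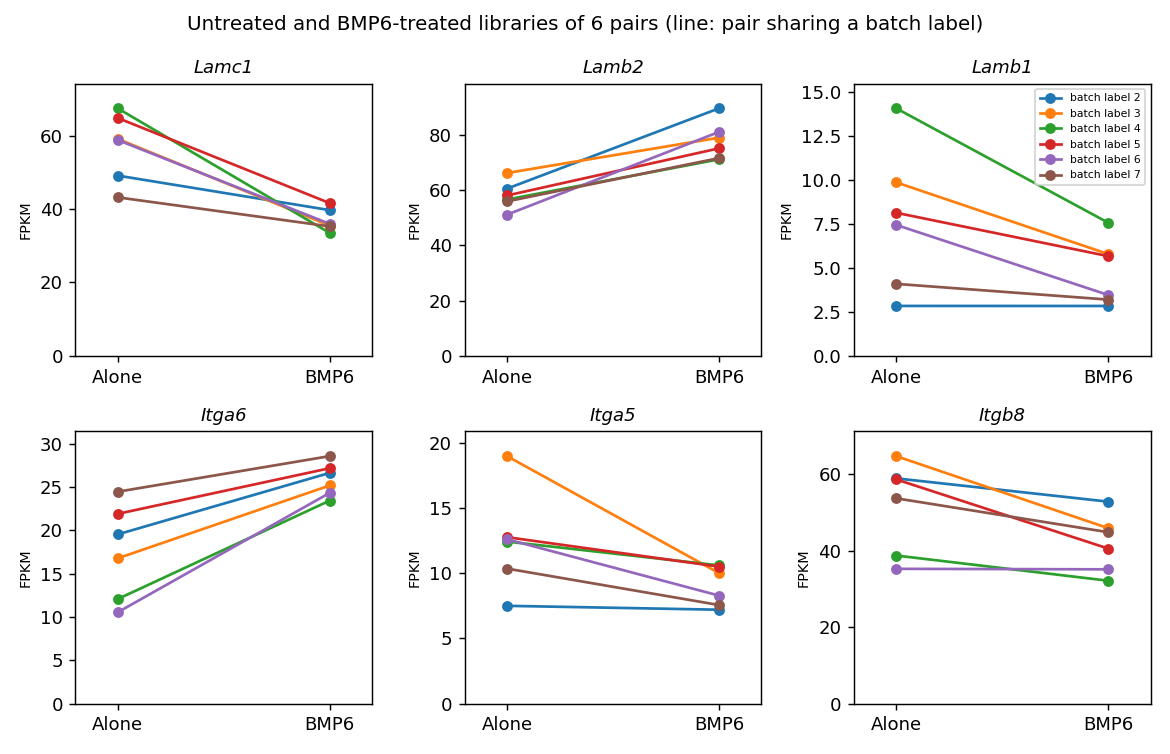
FPKM of 6 laminin and integrin genes in Alone and BMP6 libraries; each line joins the 2 libraries of a pair that share a batch label. Lamc1 is lower and Lamb2 and Itga6 are higher with BMP6 in 6 of 6 pairs, and the Lamb1 lines start between 2.84 and 14.1.

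Of the members that did not pass, Itgb1 was at 116 to 280.1 FPKM in Alone and 143 to 257 in BMP6, with a log2 difference of 0.04 (SE 0.21). Lama5 and Lama2 made up 57.5% ± 15.5 and 33.9% ± 13.0 of the alpha chains in Alone and 55.4% ± 5.77 and 37.5% ± 4.44 in BMP6. Over the 17 members tested the median log2 difference was -0.14, beside -0.08 over all genes. Summed astrocyte markers were at 1020.0 to 2755 FPKM in Alone and 1729 to 3626 in BMP6, and were higher with BMP6 in 6 of 6 pairs. Summed endothelial markers were at 6.46 to 91.3 and 39.9 to 140, and were also higher in 6 of 6 pairs, with 1 of the 11 genes, Slco1a4, reaching a mean of 1 FPKM. Oligodendrocyte lineage markers, at 563 to 1459 and 481 to 1113, were lower in 6 of 6 pairs, and mural and fibroblast markers, at 199 to 1303 and 420.5 to 1003, overlapped. Their part in the differences was not tested.

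Among the partners, in the fit without the replicate block, 2 of 32 tested integrin adaptors rose with BMP6 and none fell. The partner counts of this paragraph are read against 15.1% of all genes called in that fit. They were not repeated with the block, which called 35.5% of all genes. Kank1, which binds talin at the rim of adhesions, rose by 0.91 (log2, SE 0.14, limma adjusted p = 0.00244). The other was Parvb, a parvin of the kinase complex at integrin tails, with means of 2.17 FPKM in BMP6 and 0.937 in Alone. Its rise is a description, since its mean in Alone was under the filter level. Of 14 basement membrane partners 1 rose, the collagen IV chain gene Col4a6, named after its value was seen, and 3 fell: Smoc1, a matricellular BMP antagonist, by 2.85, Fbln2 by 1.77 and Fbln1 by 1.05, both fibulins that bind laminin (limma adjusted p = 0.0055, 0.0205 and 0.00421). Of 20 other laminin receptor genes 3 rose, all in the dystrophin complex: Sntb1 by 1.22, Dtnb by 0.50 and Sspn by 0.29 (limma adjusted p = 0.000884, 0.0196 and 0.047). Of 20 integrin ligands 1 passed, Mfge8, which fell by 0.80 (log2, SE 0.17, limma adjusted p = 0.0125).

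The comparison of preparations asks how astrocytes in culture differ from those lysed straight after purification, and how the cultures differ from each other. In IP cultured and in MD cultured, Lama4, Lamb1 and Itga6 were lower and Lama5 was higher than in IP acute. There were no MD libraries without culture. Preparation and culture therefore cannot be told apart in MD cultured against IP acute. A member passed the filter on low values here if 3 libraries reached 1 FPKM, which a single group can supply, so the counts only describe the 26 members tested. Between IP cultured and IP acute 10 passed, 3 up and 7 down, beside 43.3% of the 14101 genes tested (17.8% up and 25.5% down). Between MD cultured and IP acute 16 passed, 5 up and 11 down, beside 60.1% (20.4% up and 39.8% down). Between the cultures, MD against IP, 7 passed, 3 up and 4 down, beside 45.8% (16.4% up and 29.3% down). Groups did not overlap for 10, 16 and 9 members, beside 51.9%, 72.2% and 56.4% of all genes. The shares of members called were near those of all genes in the comparisons with IP acute, and below them between the cultures. The shares of members without overlap were below those of all genes in all 3 comparisons.

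Lama4 (chr10:38965515-39110188) was at 72.7, 41.1 and 56.5 FPKM in IP acute, at 3.32, 5.45 and 2.66 in IP cultured and at 1.49, 5.21 and 2.87 in MD cultured. The cultures lay far below every acute library and overlapped each other. It fell by 3.75 (log2, SE 0.40, limma adjusted p = 0.000193) in IP cultured and by 4.05 (SE 0.40, adjusted p = 6.68e-05) in MD cultured. Lama5 (chr2:180176373-180225904) was at 5.15, 3.52 and 5.03 FPKM in IP acute, at 17.8, 9.93 and 16.8 in IP cultured and at 21.8, 24.5 and 17.6 in MD cultured. Each cultured library lay above each acute one. It rose by 1.57 (log2, SE 0.25, limma adjusted p = 0.00129) and 2.11 (SE 0.25, adjusted p = 0.000155). Lama4 thus made up 71.1% ± 2.10 of the summed alpha chains in IP acute, 13.5% ± 4.57 in IP cultured and 8.20% ± 3.67 in MD cultured, and Lama5 5.82% ± 0.788, 53.5% ± 16.9 and 57.1% ± 5.42.

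Lamb1 was at 74.4, 36.8 and 53.7 FPKM in IP acute, at 17.97, 14.7 and 12.6 in IP cultured and at 3.72, 11.5 and 7.73 in MD cultured. The 3 groups stood apart in that order without overlap. It fell by 1.79 (log2, SE 0.38, limma adjusted p = 0.00595) in IP cultured and by 2.83 (SE 0.38, adjusted p = 0.000337) in MD cultured, and the difference between the cultures, -1.05, had an adjusted p of 0.0529. Lamb2 was at 76.1, 55.2 and 75.6 FPKM in IP acute, 67.7, 94.4 and 68.2 in IP cultured and 119, 128 and 115 in MD cultured. MD cultured lay above both other groups, which overlapped. Lamb2 rose by 0.67 (log2, SE 0.17, limma adjusted p = 0.0121) against IP cultured and by 0.82 (SE 0.17, adjusted p = 0.00301) against IP acute. As a share of the beta chains, Lamb1 was 43.6% ± 5.08 in IP acute, 16.6% ± 3.85 in IP cultured and 5.86% ± 2.65 in MD cultured.

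Of the gamma chains, Lamc1 was at 127, 68.5 and 92.6 FPKM in IP acute, 87.2, 62.1 and 60.3 in IP cultured and 39.3, 54.9 and 39.2 in MD cultured. MD cultured lay below both other groups. Lamc1 fell by 1.08 (log2, SE 0.25, limma adjusted p = 0.00531) in MD cultured against IP acute. Lamc3, the gamma3 chain, fell by 1.80 in IP cultured (log2, SE 0.51, limma adjusted p = 0.0206), from 23.4, 6.97 and 13.3 to 3.17, 4.52 and 2.64 FPKM.

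**Figure D4:**
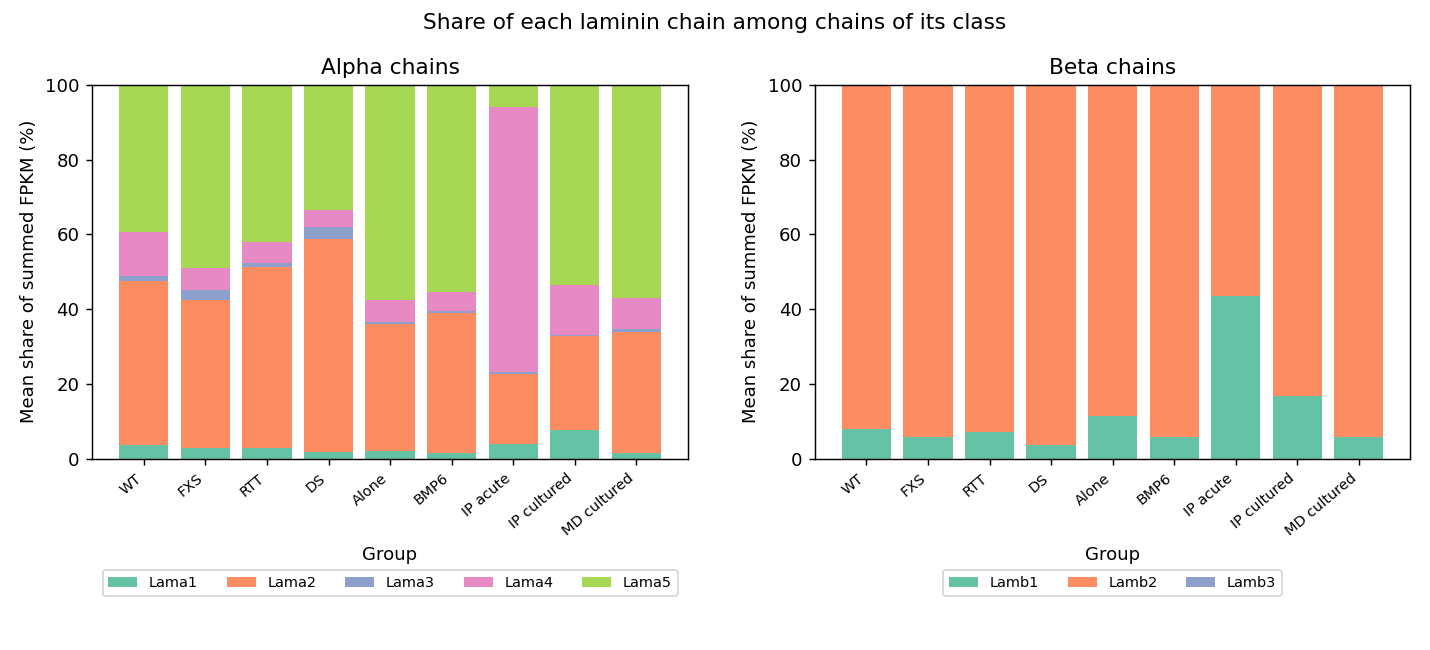
Mean share of each laminin alpha chain (left) and beta chain (right) in the summed FPKM of its class, as stacked bars in percent for the 9 groups. Lama4 fills 71.1% and Lamb1 43.6% of the IP acute bars, while Lama5, Lama2 and Lamb2 make up most of the bars of every cultured group.

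Among integrin alpha subunits, Itga4 (chr2:79255426-79333114), the alpha subunit of the VLA-4 receptor of leukocytes and other motile cells, was at 13.3, 6.18 and 8.76 FPKM in IP acute, 0.487, 0.969 and 0.429 in IP cultured and 0.141, 0.387 and 0.429 in MD cultured. No cultured library reached 1 FPKM. It passed the filter through the acute libraries alone, so its difference is a description. Itga6 was at 66.3, 59.8 and 72.8 FPKM in IP acute, 20.2, 36.9 and 25.3 in IP cultured and 33.965, 25.9 and 20.6 in MD cultured. The cultures overlapped each other and lay below the acute libraries. Itga6 fell by 1.30 (log2, SE 0.24, limma adjusted p = 0.00289) and 1.32 (SE 0.24, adjusted p = 0.0016).

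Itga3 was highest in MD cultured, at 22.3, 29.1 and 34.8 FPKM, against 4.40, 13.3 and 3.81 in IP cultured and 6.12, 4.04 and 3.78 in IP acute. IP cultured library 4 stood above the rest of its group but below every MD cultured library. Itga3 rose by 2.12 (log2, SE 0.42, limma adjusted p = 0.00421) against IP cultured and by 2.51 (SE 0.42, adjusted p = 0.00103) against IP acute. The Itga3 transcript listed in this table differs from that of the other tables. Itga2b, the platelet subunit, was at 0.347 to 0.57 FPKM in IP acute. It was at 1.02 to 1.75 in IP cultured and 1.18 to 2.38 in MD cultured. The cultures alone carried it past the filter, so its rise is a description. Itga2 and Lama1 were at 0.402 to 0.698 and 0.262 to 1.05 FPKM in MD cultured. In the immunopanned groups, where they passed the filter, they were at 1.185 to 3.90 and 1.43 to 5.04, a description too. Itga9 fell by 1.13 in MD cultured against IP cultured (log2, SE 0.37, limma adjusted p = 0.0329). That call missed the threshold in 6 of 11 alternatives. Against IP acute Itga9 fell by 1.67 (SE 0.37, adjusted p = 0.00411). In IP cultured, Lama2 fell by 1.08 (log2, SE 0.35, limma adjusted p = 0.0365). Itga1, a subunit of a collagen and laminin receptor, also fell there (limma adjusted p = 0.0495), with 32.8, 15.2 and 21.4 FPKM in IP acute and 7.40, 19.4 and 6.30 in IP cultured. IP cultured library 4 overlapped the acute group for both genes. The Lama2 call missed the threshold in 6 of 12 alternatives, with an adjusted p of up to 0.151 (limma). For Itga1 this was so in 9 of 12, with an adjusted p of up to 0.162. Neither was called in the authors' deposited table (adjusted p = 0.0662 for Lama2 and 0.128 for Itga1). In MD cultured, Itga7 fell against IP acute by 0.63 (log2, SE 0.24, limma adjusted p = 0.0449). That call missed the threshold in 7 of 11 alternatives, with an adjusted p of up to 0.203 (limma). The authors' deposited table did not call it (adjusted p = 0.235). Itgb2 was at 0.209 to 0.866 FPKM in MD cultured and 1.11 to 8.43 in IP acute. It passed the filter through immunopanned libraries only, so its difference is a description.

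Itgb8 (chr12:119162803-119238276) lay on opposite sides of IP acute in IP cultured and MD cultured. Its levels were 60.9, 57.6 and 58.7 FPKM in IP acute, 93.7, 73.3 and 90.3 in IP cultured and 30.5, 22.4 and 20.2 in MD cultured. The 3 groups did not overlap. Against IP acute it rose by 0.53 in IP cultured (log2, SE 0.16, limma adjusted p = 0.0273) and fell by 1.28 in MD cultured (SE 0.16, adjusted p = 0.000222), and the direct difference, MD against IP cultured, was -1.81 (SE 0.16, adjusted p = 0.000155). Itgb8 accordingly made up 4.80% ± 2.46 of the summed beta subunits in MD cultured, 14.9% ± 1.90 in IP cultured and 13.2% ± 1.17 in IP acute. The rise in IP cultured missed the threshold in 5 of 12 alternatives, those leaving out IP acute library 2, 4 or 7 or IP cultured library 2 or 7.

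**Figure D5:**
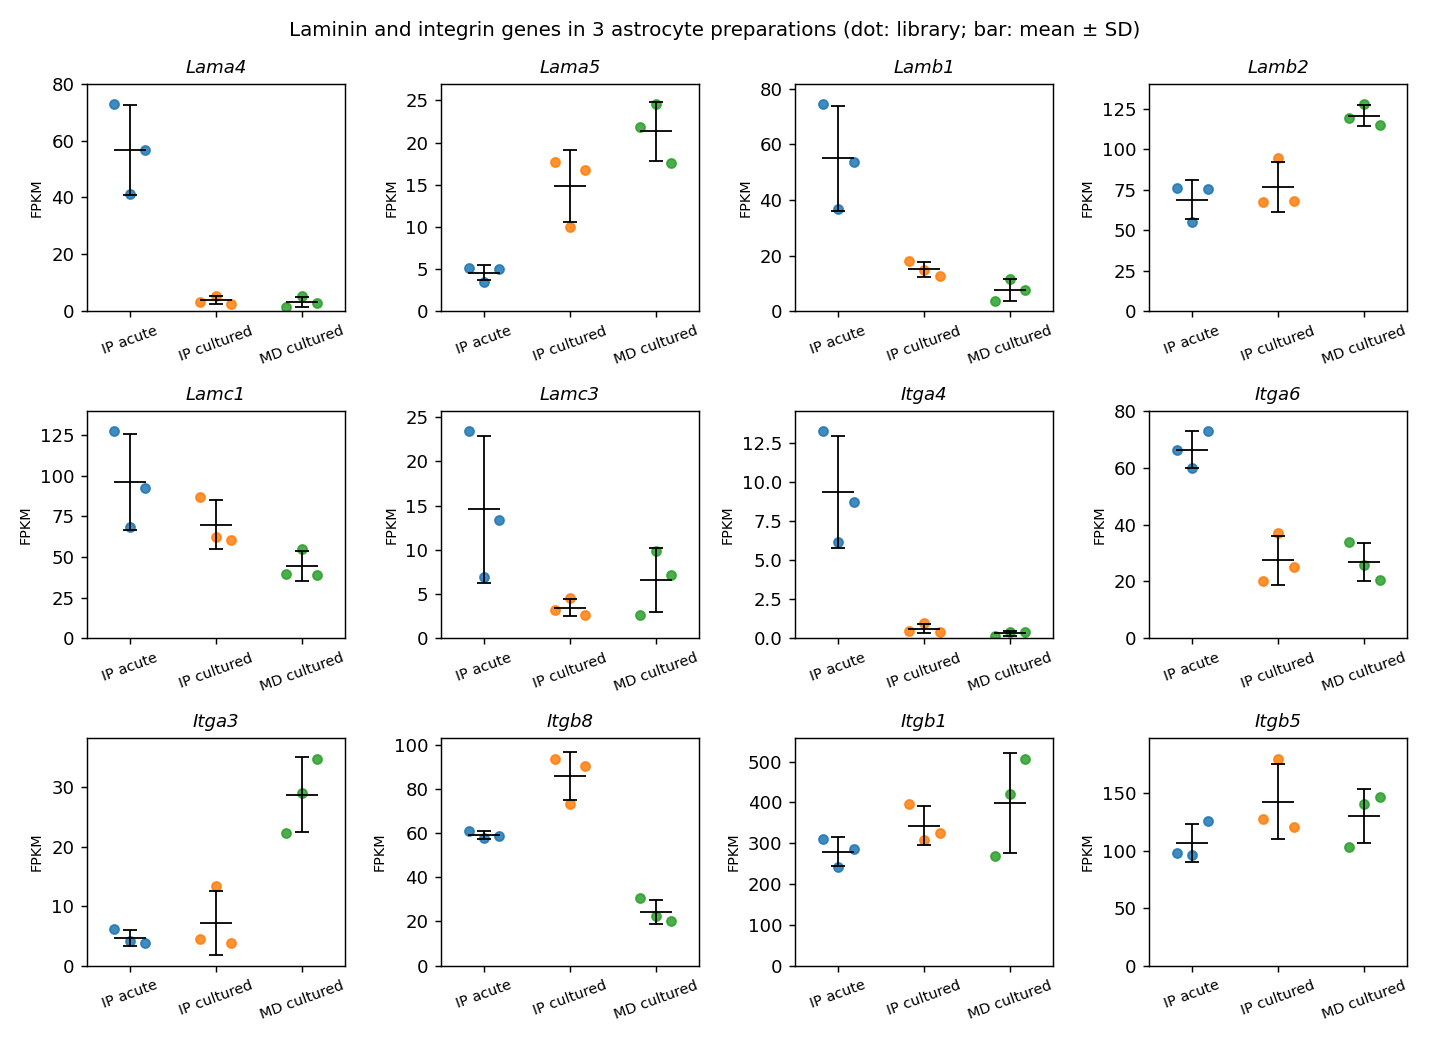
FPKM of 12 laminin and integrin genes in IP acute, IP cultured and MD cultured; each dot is a library, the bar is the mean ± SD and each panel has its own axis. Lama4 and Itga4 are high in IP acute alone, Itga3 is highest in MD cultured, and Itgb8 separates all 3 groups.

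Members that did not pass in any comparison of preparations in the limma fit included the highest ones, Itgb1 and Itgb5. Itgb1 was at 311, 240.3 and 286 FPKM in IP acute and at 267, 421 and 507 in MD cultured, which overlapped. Itgb5 was at 98.2, 96.4 and 126 FPKM in IP acute and 128, 180.0 and 120.2 in IP cultured. Itgav was at 56.8, 50.2 and 59.3 in IP acute and 71.2, 29.2 and 53.9 in IP cultured. In the authors' deposited table, 9, 9 and 18 of the 26 members passed, beside 29.7%, 27.8% and 42.7% of the 24537 genes listed, low ones included, for IP cultured against IP acute, MD against IP cultured and MD cultured against IP acute, and 8, 7 and 15 of those called here were among them, all in the same direction. The authors' deposited table also called Itgb1 (log2 fold change 0.77, adjusted p = 0.0142) and Itgb5 (0.54, adjusted p = 0.0245) in MD cultured against IP acute, and Itgb1 passed there in limma after scaling by the median of ratios or without MD cultured library 1.

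Single libraries decided some calls. Of the 10 calls between IP cultured and IP acute, 5 remained without IP acute library 2, 4 without IP acute library 7, 6 without IP cultured library 2 and 6 without IP cultured library 7. Itga6, Lama4, Lama5 and Lamb1 passed each time a library was left out, whereas Itga4 was not tested without an acute library, since too few libraries then reached 1 FPKM. Of the 7 calls between the cultures, 4 remained without MD cultured library 1 and 4 without MD cultured library 3. Scaling by the median of ratios moved the median of all genes by 0.179 between the cultures and by 0.223 between MD cultured and IP acute (log2), with 52.6% rather than 35.9% and 47.9% rather than 33.9% of called genes rising, and no member named here changed direction. Median differences of the 26 members were -0.22, -0.08 and -0.39 for IP cultured against IP acute, MD against IP cultured and MD cultured against IP acute, beside -0.04, -0.16 and -0.24 over all genes.

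Markers of other cell types also differed between the preparations, in different directions. Summed endothelial markers were at 897 to 1680 FPKM in IP acute, 7.31 to 23.5 in IP cultured and 71.3 to 113 in MD cultured, and all 11 fell in IP cultured. Microglial markers summed to 151 to 1606, 91.1 to 269 and 32.1 to 99.4, and neuronal markers to 380 to 1690, 13.5 to 24.9 and 104 to 206. Of the 13 microglial markers 12 were tested and 4 fell in IP cultured, and all 10 neuronal markers fell there. Oligodendrocyte lineage markers summed to 1289 to 1881, 2238 to 4186 and 449 to 711, and ciliated and ependymal markers to 18.5 to 32.3, 64.8 to 251 and 286 to 622. Summed mural and fibroblast markers overlapped, at 885 to 2349.9, 616 to 2786 and 1164 to 2089, yet of the 15 genes 2 rose and 6 fell in IP cultured, and 2 rose and 8 fell in MD cultured, against IP acute. IP cultured library 4, which stood apart for Itga3, Itga1 and Lama2, held the 2786, against 789 and 616 in the others of its group, and without it the 10 member calls between IP cultured and IP acute all remained. Itgb2, at 8.43, 1.11 and 2.33 FPKM in IP acute, was highest in the acute library with the most microglial marker RNA. The part of these cells in Lama4, Lamb1, Itga4 and the other differences was not tested.

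In IP cultured against IP acute, 3 of 35 adaptors and kinases rose and 11 fell, 4 of 18 basement membrane partners rose and 8 fell, 4 of 21 other laminin receptors rose and 5 fell, and 3 of 28 integrin ligands rose and 15 fell, beside 17.8% and 25.5% of all genes. Named after their values were seen, those that rose were the adaptors Flna, Ilk and Parva, the basement membrane partners Col4a5, Col4a6, Ntn4 and Smoc1, the receptor genes Dag1, Dmd, Rpsa and Sspn, and the ligands Ctgf, Fbn1 and Spp1. Agrn (agrin), which links laminin to dystroglycan, fell by 1.35 (log2, SE 0.18, limma adjusted p = 0.000696), and Ntn4, a netrin that binds laminin gamma chains, rose by 1.84 (SE 0.26, adjusted p = 0.000766). Parvb fell by 3.41 (SE 0.34, adjusted p = 0.000131). The ligands Vwf and Icam2, which endothelial cells make, had means of 33.7 and 36.2 FPKM in IP acute and 0.438 and 0.0243 in IP cultured, given as a description because they passed the filter through the acute libraries.

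In MD cultured against IP cultured, 14 of 35 adaptors rose and 4 fell, 5 of 18 basement membrane partners rose and 3 fell, 5 of 21 receptors rose and 7 fell, and 6 of 28 ligands rose and 4 fell, beside 16.4% and 29.3% of all genes. Of the 14 adaptors that rose, Cib1 rose by 0.96 (log2, SE 0.09, limma adjusted p = 0.000198) and Tln2 by 1.57 (SE 0.22, adjusted p = 0.000861). Ptk2b, also among them, had means of 0.897 FPKM in IP cultured and 15.45 in MD cultured. That is a description, since its mean in IP cultured was under the filter level. Among the short lists, again named after their values were seen, the adaptors Fermt2, Lims1, Ptk2 and Rap1a fell. So did the basement membrane partners Agrn, Nid1 and Smoc1 and the ligands Edil3, Mfge8, Vtn and Vwf. The basement membrane partners Col4a1, Col4a3, Col4a4, Hspg2 and Sparc rose, as did the receptor genes Sgca, Sgcb, Sgcd and Utrn among others. Vwf had means of 0.438 FPKM in IP cultured and 0.0923 in MD cultured, and passed the filter through the acute libraries. Sgca, with means of 0.236 in IP cultured and 5.54 in MD cultured, passed it through MD cultured. Edil3, with means of 5.58 and 0.290, passed it through the immunopanned libraries. The calls of Vwf, Sgca and Edil3 are therefore descriptions. Col4a3 and Col4a4, the collagen IV chains of mature basement membranes, had means of 9.24 and 7.59 FPKM in MD cultured and 0.0377 and 0.925 in IP cultured, a description as well, since the filter was passed through the group where Col4a3 was high. Dag1, which encodes dystroglycan, the main laminin receptor that is not an integrin, fell by 1.18 (SE 0.13, adjusted p = 0.000373), from a mean of 428 to 187 FPKM. Pomt2, from the same list, fell by 1.00 (log2, SE 0.11, limma adjusted p = 0.000388), and the others of the 7 that fell are not named. Vtn (vitronectin) is a ligand of alphav integrins that the mural marker list also holds. It had means of 126 FPKM in IP cultured and 0.671 in MD cultured. This is a description too, since its mean in MD cultured was under the filter level.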

How the data were processed

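Per the labels, libraries were stranded, made from poly(A) RNA and read as single ends of 50 bp. In the submitters' processing notes stand mm10 and the tools STAR 2.5.3a, HOMER 4.10.4, DESeq2 1.14.1 and FastQC 0.11.8, and the role of each is not given in the sources used here. The authors deposited expression as FPKM in 3 tables, per the file headers of 2 of them. The header of the preparation table gives no unit, and FPKM was inferred from its layout. That table adds log2 fold changes and adjusted p-values deposited by the authors. FPKM sums per library were 305262 to 401658.7 in the disorder and BMP6 tables and 605761.3 to 637271.4 in the preparation table, so tests stayed within a table. Depth was estimated from what a lone read is worth among low values.

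Each table was fitted once on log2(FPKM + 0.5), using lmFit and eBayes (trend) of limma 3.58.1 under R 4.3.3 and only the group in the model. Tests were two-sided, with Benjamini-Hochberg adjustment over all genes tested and a threshold of 0.05. Genes needed at least 1 FPKM in as many libraries as the smallest group (4, 6 and 3), which left 22, 17 and 26 members. Fold changes on this scale understate those of low genes. Most members past the threshold, or of smallest p, are given by library or by range. From the partner lists some of the 3 called genes of smallest p in a comparison are given with values. Other called partner genes are named without values, where the text says they were named after their values were seen. The members and lists were chosen with earlier results of these data known. BMP6 and Alone libraries of a number share a batch label, and their deviations from the group means correlated at r = 0.41 to 0.777 in 6 pairs, so the labels pair them. Nothing in the labels ties the preparation libraries to separate cultures or animals, and p-values among them may reflect technical spread only. At most 2.46% of values were identical between any 2 libraries. Alternatives were other pseudocounts (0.1 and 1), no filter, scaling by the median of ratios, only the compared groups in the fit, the replicate block and leaving out each library. Some genes are not reported here by name, and counts over lists include them.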

Additional observations from a re-analysis of the deposited data

Results flagged for a closer look

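Single libraries stood apart for 4 of 112 combinations of a member and a group of 4 to 6 libraries, where chance alone flags about 1 in 20. Itga9 was at 1.047 FPKM in the BMP6 library of pair 6, below the next lowest at 1.58. Itgav was at 26.534 FPKM in RTT library 40, below the next lowest at 40.9. Lama4 was at 4.172 FPKM in WT library 33, above the next highest at 2.24, and at 2.488 in FXS library 38, above the next highest at 1.21.

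Itgb8 differed in direction between the cultures: relative to IP acute it rose in IP cultured and fell in MD cultured, with a direct log2 difference of -1.81 (SE 0.16, limma adjusted p = 0.000155).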

How the results depend on the processing

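Across 44 results for single members and 511 alternatives, 433 kept direction and side of the threshold, 78 changed side and 0 changed direction. With only the compared groups in the fit, 2 members passed in FXS against WT and 0 in DS against WT. With no filter on low values 0 passed in DS against WT, where 1 passed in the main fit. The cause of these shifts was not tested. Shares of all genes called under the alternatives of this paragraph are not given here, so its member counts are descriptions. Leaving out a library gave 0 to 1 members in DS against WT, 2 to 4 in BMP6 against Alone, 4 to 11 in IP cultured against IP acute, 4 to 8 in MD against IP cultured and 13 to 16 in MD cultured against IP acute. Without WT 33, FXS 31 and DS 32 together, an alternative chosen after seeing the data, 1 member passed in DS against WT.

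With the replicate block, 6 members passed in BMP6 against Alone rather than 3. IP acute and IP cultured share the numbers 2, 4 and 7 only by label, with deviations correlated at -0.051 to 0.0853 and 0 of 3 libraries closest to their own number, and the block gave 7 members rather than 10. Depth limits members below about 1 FPKM, and with 3 or 4 libraries in a group small differences were not detectable.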
